A study of Mus musculus with 16 samples.

Results

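Mouse muscle cells exposed to night serum of mice without Bmal1 in the liver were compared with the same cells exposed to night serum of wild-type mice. The comparison takes the 8 libraries labelled with ZT16 serum out of 16 in all, 4 with serum of Bmal1hep-/- donors (called LKO ZT16 here) and 4 with serum of WT donors (WT ZT16), and covers the 11783 genes with a mean of at least 0.5 FPKM out of 24319 with a usable symbol. FPKM, the authors' unit, is a fragment count scaled by transcript length and by the library's mapped fragments. The recipients in all groups were differentiated C2C12 myotubes, a mouse muscle cell line that fuses into contractile fibres, kept for 24 hr in serum. Zeitgeber time (ZT) counts hours after lights on, so ZT16 falls in the night, when mice are active, and ZT4 in the day. The other 8 libraries, 4 with Bmal1hep-/- ZT4 serum (LKO ZT4) and 4 with WT ZT4 serum (WT ZT4), add to the estimate of each gene's spread and serve for the test of night against day.

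Only the donors' livers carried the deletion, never the myotubes. All groups share the cell line and the length of exposure. The labels call the 4 libraries of a group biological replicates. The sources used here give neither the Cre driver, the donors' age and sex, nor the serum concentration, nor whether sera were pooled. The p-values therefore measure the spread between these libraries, which may be technical.

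BMAL1, encoded by Arntl, pairs with CLOCK and drives Per, Cry and Nr1d genes, whose products feed back on it. The liver clock times the release of lipids, glucose and secreted proteins into the blood, and skeletal muscle takes up and senses many of them. Serum also carries growth factors, hormones and lysophospholipids that act on cytoskeletal, growth and stress pathways of cultured muscle cells. The design asks whether loss of the liver clock alters what night serum does to myotube transcripts.

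Relative depth, estimated from the 1-read steps of low values, was 73.0 to 97.9% of the deepest library in LKO ZT16 and 65.7 to 87.4% in WT ZT16. The authors' FPKM summed to 580818 to 612430 per library in LKO ZT16 and to 637598 to 664601 in WT ZT16, without overlap (exact permutation test, two-sided, p = 0.0286, the smallest that 4 against 4 libraries allow). The 13 tested of 15 myotube markers summed to 8953 to 10155 FPKM in LKO ZT16 and 9536 to 12168 in WT ZT16. The 8 reserve myoblast and proliferation markers, 7 of them tested, summed to 391 to 410 FPKM in LKO ZT16 and 401 to 427 in WT ZT16. Transcripts of dividing or undifferentiated cells, such as Top2a and Pax7, were thus present in all 8 libraries, while Pax3 was at or near 0. Of 10 hepatocyte markers none was tested, 7 were at 0 in all 8 libraries, among them Alb and Ttr, and their sum was at most 0.0919 FPKM. The sums of 4 erythroid markers in the table (0.140 to 0.523 FPKM in LKO ZT16 and 0.281 to 0.924 in WT ZT16) and of 5 adipocyte markers (at most 0.0279 and 0.143) were also near 0. Of the 8 leukocyte and platelet markers 4 were at 0 in all 8 libraries (Ptprc, Cd3e, S100a9 and Pf4), and the sum was 0.854 to 2.77 FPKM in LKO ZT16 and 2.28 to 5.70 in WT ZT16; its part in the results was not tested. Of the 6 macrophage and endothelium markers Adgre1 was at 0 throughout, and the sum was 0.552 to 1.52 and 0.766 to 1.86 FPKM.

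Under LKO night serum 6 genes were lower and none was higher at an adjusted p under 0.05. Of the 6, 4 are short ribosomal or ribosomal-like transcripts (Rps27rt, Rpl39 and Rps21) or a short predicted gene (Gm12191), and the others are Slirp, which binds and stabilises mitochondrial messenger RNAs, and Ass1, argininosuccinate synthase of arginine synthesis. The 6 were 0.0509% of the genes tested with limma and Benjamini-Hochberg adjustment, and 1502 genes (12.7%) had an unadjusted p under 0.05, 726 higher (6.16%) and 776 lower (6.59%). Differences are of log2(FPKM + 1); for genes of low FPKM the added 1 makes them smaller than the true fold. Their median over all tested genes was 0.0053, and 127 genes (1.08%) differed by 0.5 or more and 21 (0.178%) by 1 or more.

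Rps27rt, a retrogene copy of Rps27, is one of the most abundant transcripts of these cells. It had 2635, 2800.4, 2840.1 and 2951 FPKM in replicates 1 to 4 of LKO ZT16, against 5236, 5107, 4816 and 4695 FPKM in WT ZT16. All LKO values lay below all WT values; the difference was -0.82 ± 0.12 (estimate ± SE here and below; adjusted p = 0.0296).

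Rpl39, a protein of the large ribosomal subunit at the exit tunnel, had 1374, 1457, 1447 and 1368 FPKM in LKO ZT16, against 2569, 2228, 2215 and 2314 FPKM in WT ZT16 (-0.72 ± 0.11, adjusted p = 0.0296). Rps21, a protein of the small subunit, had 1530.2, 1881, 1816 and 1712 FPKM in LKO ZT16, against 3467, 3278, 3087 and 2966 FPKM in WT ZT16 (-0.88 ± 0.15, adjusted p = 0.0387). The groups were apart in both, and the spread within a group was small beside the gap. In bulk RNA like this, fewer cells of a type and less RNA per cell cannot be told apart. Gm12191 had 1761, 1855, 1809 and 1754 FPKM in LKO ZT16, against 2412, 2362, 2326 and 2365 FPKM in WT ZT16 (-0.40 ± 0.07, adjusted p = 0.0387); as a predicted gene it was named after its values were seen. These transcripts have near-identical copies in the genome, and the sources used here do not say how reads were divided among copies. Rps27 itself had 8.44, 11.1, 80.9 and 6.17 FPKM in LKO ZT16, against 8.93, 8.42, 6.27 and 9.37 FPKM in WT ZT16, a small part of the FPKM assigned to its copy. The groups overlapped, and LKO replicate 3 stood far above the other 7 libraries; Rps27 was named after its values were seen, as the parent of Rps27rt.

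Slirp had 158, 203, 156 and 174 FPKM in LKO ZT16, against 309.8, 289.8, 282 and 270.3 FPKM in WT ZT16 (-0.74 ± 0.13, adjusted p = 0.0424). Every LKO library lay below every WT library. Ass1 had 8.45, 7.95, 15.9 and 17.4 FPKM in LKO ZT16, against 31.4, 30.3, 34.2 and 31.5 FPKM in WT ZT16 (-1.36 ± 0.22, adjusted p = 0.0387). Within LKO ZT16 replicates 1 and 2 lay well below replicates 3 and 4, while the WT libraries were even. Ass1 had the largest fall of the 6, and with a transcript of 1696 nt it is also the longest of them.

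**Figure D1:**
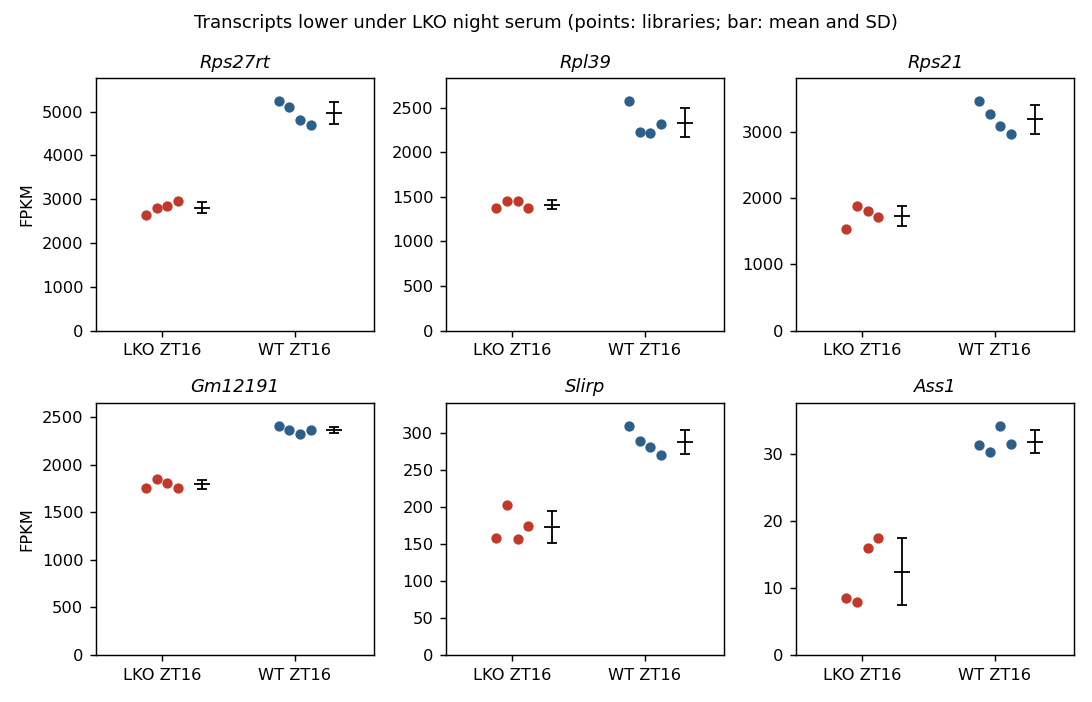
FPKM of the 6 genes that passed, by library (points, replicates 1 to 4 from left to right), with mean and SD (bar, n = 4) for LKO ZT16 on the left and WT ZT16 on the right. In each panel the 4 LKO points lie below the 4 WT points, and Ass1 has the widest spread among LKO libraries relative to its mean, 7.95 to 17.4 FPKM.

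The count of 6 depended on which libraries entered the fit. It was 0 when LKO ZT16 replicate 1, 2 or 3, WT ZT16 replicate 1, 3 or 4, or WT ZT4 replicate 1, 3 or 4 was left out, 1 lower gene without LKO ZT16 replicate 4, 1 higher gene without WT ZT16 replicate 2, and 3 without WT ZT4 replicate 2. In the fits with 0, between 1001 and 1478 genes had an unadjusted p under 0.05. Without the day library LKO ZT4 replicate 1 the count was 27 (5 higher, 22 lower), and it was 10 (2 higher, 8 lower) when replicate 4 of that group was the one left out. It was 131 (22 higher, 109 lower) in a fit of the 8 night libraries alone and 254 (95 higher, 159 lower) with library weights, and both held all 6. With all libraries at 1 summed FPKM it was 9 (3 higher, 6 lower), so the absence of higher genes depends on the scaling.

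Genes that came next on the lower side did not pass. Snhg6, a host gene of small nucleolar RNAs, had 51.3, 44.6, 55.9 and 54.04 FPKM in LKO ZT16, against 74.1, 81.6, 76.1 and 63.8 FPKM in WT ZT16 (-0.51 ± 0.10, adjusted p = 0.113). The ribosomal protein genes Rpl38 (-1.002 ± 0.20, adjusted p = 0.113), Rps29 (-1.03 ± 0.21, adjusted p = 0.13) and Rpl37a (-0.61 ± 0.12, adjusted p = 0.127) had means of 1280.4 ± 117, 849 ± 136 and 1053 ± 48.7 FPKM in LKO ZT16 (SD, n = 4), against 2583 ± 439, 1739 ± 298 and 1614 ± 128 FPKM in WT ZT16. Tmem208, an endoplasmic reticulum membrane protein of protein targeting, had 67.5, 65.002, 71.7 and 67.7 FPKM in LKO ZT16, against 89.98, 80.98, 81.1 and 87.7 FPKM in WT ZT16 (-0.32 ± 0.07, adjusted p = 0.158). In each of these 5 genes the 4 LKO libraries lay below the 4 WT libraries, as in 5.92% of all tested genes. Being chosen by their small p, they were likely to be apart.

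On the higher side the 10 genes with the smallest p are given as not passing, and 9 of them had all LKO libraries above all WT libraries (5.95% of all genes did). Genes chosen by a small p in these libraries tend to be apart, so their separation is no further result. Tecrl, an enoyl-CoA reductase-like protein of heart and muscle, had 0.773, 0.957, 0.942 and 1.12 FPKM in LKO ZT16, against 0.424, 0.345, 0.3299 and 0.1998 FPKM in WT ZT16 (0.56 ± 0.10, adjusted p = 0.0763). The aldo-keto reductase Akr1b7 had 0.9099, 1.27, 1.14 and 0.623 FPKM in LKO ZT16, against 0.328, 0.2802, 0.274 and 0.213 FPKM in WT ZT16 (0.63 ± 0.12, adjusted p = 0.0999). Both are near the lowest levels that were tested.

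Chpt1, the choline phosphotransferase of phosphatidylcholine synthesis, had 23.3, 24.6, 25.4 and 23.6 FPKM in LKO ZT16, against 18.6, 19.996, 18.9 and 19.6 FPKM in WT ZT16 (0.31 ± 0.06, adjusted p = 0.114). Scd1, the desaturase that makes oleate, had 91.1, 96.2, 94.9 and 73.1 FPKM in LKO ZT16, against 51.1, 65.3, 54.5 and 58.5 FPKM in WT ZT16 (0.62 ± 0.13, adjusted p = 0.141). Acsl1, which activates long-chain fatty acids to their CoA esters, had 7.32, 7.33, 6.35 and 6.53 FPKM in LKO ZT16, against 5.59, 5.15, 4.51 and 4.19 FPKM in WT ZT16 (0.43 ± 0.10, adjusted p = 0.217). In these 3 the lowest LKO library was above the highest WT library.

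Dhrs3, which reduces retinal to retinol, was the 1 gene of the 10 with overlap, since WT ZT16 replicate 2 had 3.46 FPKM against 4.24, 4.34, 3.42 and 3.77 FPKM in LKO ZT16. The remaining 4 were the orphan receptor Mrgprf (0.60 ± 0.13), the deubiquitinase Fam63b (0.43 ± 0.10), the sialomucin Cd164 (0.21 ± 0.05) and the imprinted hydrolase Mest (0.78 ± 0.18), with adjusted p from 0.161 to 0.199. Cd164 was the most abundant, at 182 ± 5.44 FPKM in LKO ZT16 and 157 ± 7.26 FPKM in WT ZT16 (SD, n = 4).

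Cytosolic ribosomal protein genes, which build the subunits of the ribosome, lay lower as a group under LKO night serum. Of 79 tested members 77 had a negative difference, against 48.6% of all genes. At an unadjusted p under 0.05, 60 were lower (6.59% of all genes), and 62 were lower with no overlap between groups (5.92%). Only Rpl39 and Rps21 passed the adjustment over all genes (0.0509% of all genes passed). In the fit of the night libraries alone 25 members passed, among 109 lower genes of all 11783. With library weights 36 members passed, among 159 lower genes of all 11783. The median difference was -0.23, and each LKO library had a lower mean over the list than each WT library: 10.18, 10.26, 10.28 and 10.23 in LKO ZT16, against 10.61, 10.42, 10.47 and 10.50 in WT ZT16 on the log2 scale. The exceptions were Rps27, described above, and Rpl26 (0.11 ± 0.12), named as the other member with a positive difference. The gap was wider among short members: the 13 with transcripts under 500 nt had a median of -0.33 and the 14 of at least 1000 nt a median of -0.17.

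Nuclear genes of oxidative phosphorylation, which make ATP from the respiratory chain, showed the same sign. Of 77 tested subunits 73 had a negative difference, against 48.6% of all genes. In 38 the groups did not overlap, all of them lower in LKO ZT16 (5.92% of all genes were). None passed. Complex I subunits, which oxidise NADH, had a median of -0.17, with 34 of 36 negative. Ndufa3 had 127, 155, 188 and 158 FPKM in LKO ZT16, against 282, 239, 241 and 243 FPKM in WT ZT16 (-0.68 ± 0.15, adjusted p = 0.172), and Ndufa13 had 58.1 ± 5.28 and 80.9 ± 3.33 FPKM (-0.47 ± 0.12, adjusted p = 0.217; SD, n = 4). The groups were apart in both.

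Subunits of complexes III and IV, which pass electrons on to oxygen, had a median of -0.19. Of 25 members 23 were negative (48.6% of all genes were). Cox7a1, the muscle and heart form of a complex IV subunit, had 8.69, 4.34, 6.01 and 12.3 FPKM in LKO ZT16, against 18.6, 21.96, 18.1 and 19.4 FPKM in WT ZT16 (-1.30 ± 0.35, adjusted p = 0.223). Its LKO values were widely spread and all lay below WT. Among the abundant subunits, Cox7c had 652 ± 43.5 FPKM in LKO ZT16 and 925 ± 55.6 FPKM in WT ZT16, and Cox6c had 676 ± 50.7 and 888 ± 37.4 FPKM (SD, n = 4; -0.50 ± 0.13 and -0.40 ± 0.10, adjusted p of 0.217 for both). Cox7a2 had 149, 174, 169 and 168 FPKM in LKO ZT16, against 234, 218, 201 and 215 FPKM in WT ZT16 (-0.39 ± 0.09, adjusted p = 0.167). All 16 tested ATP synthase subunits, such as Atp5j2 (-0.32 ± 0.10) and Atp5e (-0.45 ± 0.16), had a negative difference (48.6% of all genes did). The median of these subunits was -0.18.

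Mitochondrial ribosomal proteins, which translate the genes of the mitochondrial genome, had a smaller median of -0.09. Of 77 members 69 were negative and 15 lower without overlap, against 48.6% and 5.92% of all genes. Mrpl52 had 489, 487, 564 and 519 FPKM in LKO ZT16, against 731, 683, 657 and 662 FPKM in WT ZT16 (-0.41 ± 0.11, adjusted p = 0.223). Enzymes of the citrate cycle and complex II had a median of 0.04 (14 of 23 positive, against 51.4% of all genes). Mitochondrial fatty acid oxidation enzymes had a median of 0.08 (16 of 20 positive, 0 with an unadjusted p under 0.05). No mitochondrially encoded gene is in the table.

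**Figure D2:**
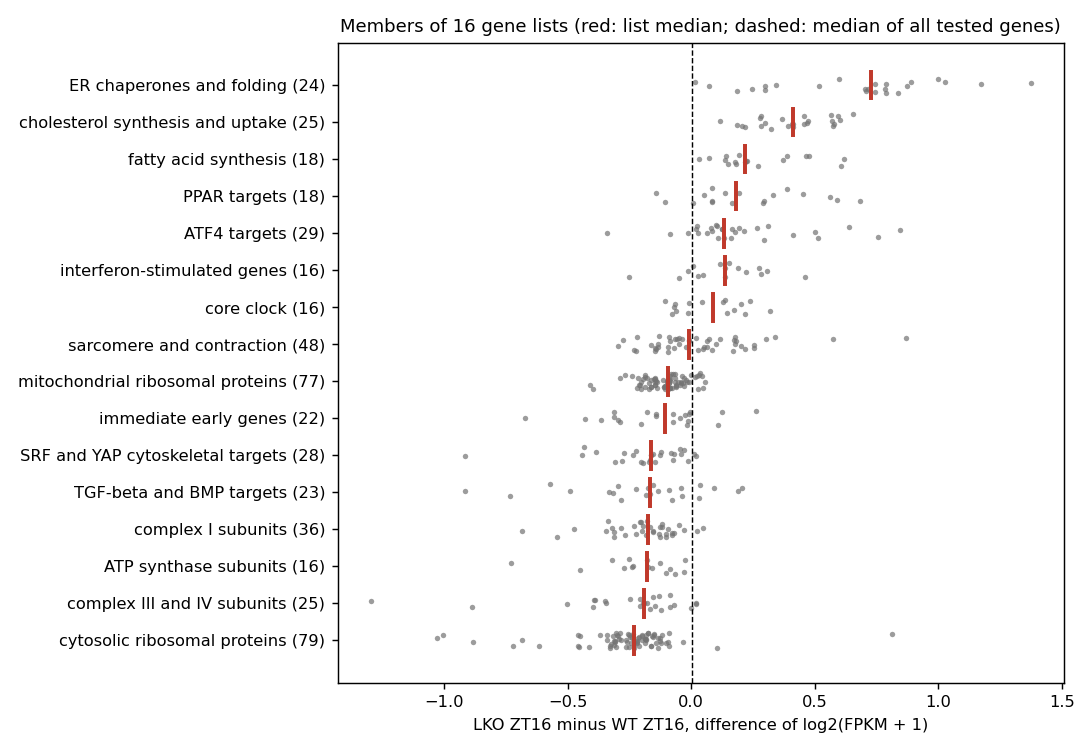
LKO ZT16 minus WT ZT16 difference of each tested member (grey points) of 16 gene lists, with the list median (red) and the number of tested members in brackets; the dashed line is the median of all tested genes, 0.0053. Endoplasmic reticulum, cholesterol and fatty acid genes lie to the right of that line, and all but a few ribosomal and respiratory chain genes to the left.

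The genes of these lower lists have shorter transcripts than most tested genes, whose median length was 2106 nt. The median length was 696.5 nt for cytosolic ribosomal proteins, 733.5 nt for complex I and 571 nt for complexes III and IV. It was 697 nt for ATP synthase and 1047 nt for mitochondrial ribosomal proteins. The difference moved with transcript length over the whole table. The median difference was -0.07 for 247 genes with transcripts under 500 nt, -0.05 for 2038 genes from 500 to 1000 nt, -0.02 for 3245 genes from 1000 to 2000 nt and 0.03 for 6197 genes of 2000 nt or more. Without overlap, 52, 259, 226 and 159 genes of these ranges were lower, and 3, 66, 116 and 515 were higher. Per library, the short-minus-long value (mean of genes under 500 nt less the mean of genes over 2000 nt, each gene centred over libraries) was -0.117, -0.023, -0.018 and -0.058 in LKO ZT16, against 0.067, 0.136, 0.000 and 0.062 in WT ZT16 (means -0.054 ± 0.046 and 0.066 ± 0.056, SD, n = 4; exact permutation test, two-sided, p = 0.0286, the smallest possible).

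With the smooth trend of each library with length removed, the medians were -0.18 for cytosolic ribosomal proteins, -0.12 for complex I, -0.15 for complexes III and IV and -0.15 for ATP synthase, and 10 genes passed, among them all 6. Among transcripts of at least 1000 nt none passed, 1116 had an unadjusted p under 0.05, and the lists kept few members. The median of those left was -0.10 for 7 of complex I (0 positive), -0.06 for 5 of ATP synthase (0 positive), -0.00059 for 5 of complexes III and IV (2 positive) and -0.09 for 41 mitochondrial ribosomal proteins (5 positive). Whether length or the preparation of the libraries has a part in the lower lists was not tested.

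**Figure D3:**
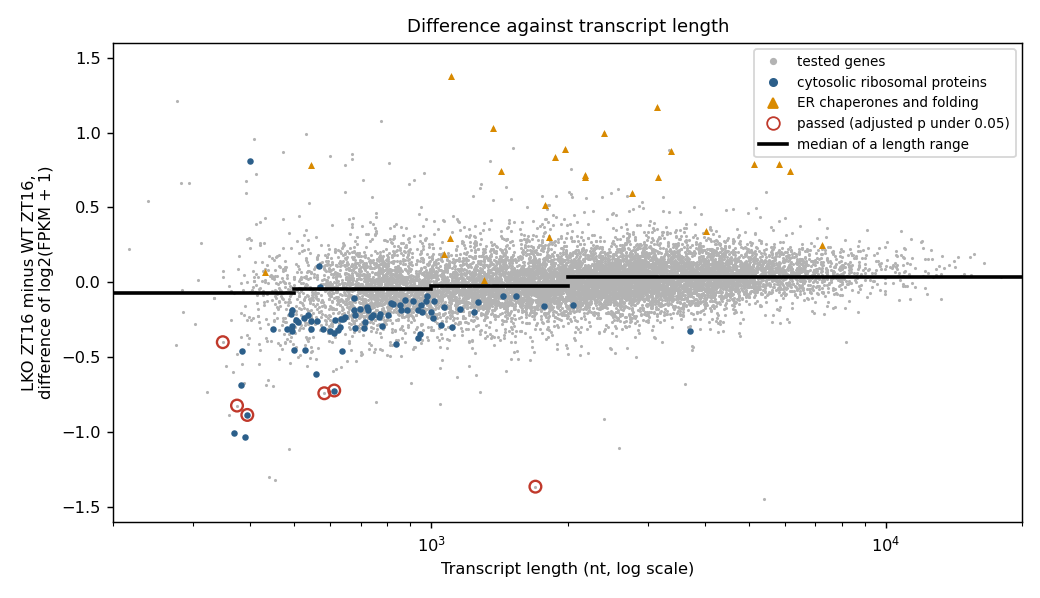
LKO ZT16 minus WT ZT16 difference against transcript length (log axis) for tested genes with a length (11 of 11727 lie outside the axes), with cytosolic ribosomal proteins, endoplasmic reticulum genes and the 6 genes that passed marked. Black lines are medians of 4 length ranges, from -0.07 for the shortest to 0.03 for the longest; most ribosomal points lie below the line of their range, and most endoplasmic reticulum points above it.

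Chaperones and folding enzymes of the endoplasmic reticulum had the largest positive median of the gene lists, 0.73. This compartment folds secreted and membrane proteins, and when unfolded protein builds up, the factors ATF6, XBP1 and ATF4 raise its chaperones. All 24 tested members had a positive difference (51.4% of all genes did). At an unadjusted p under 0.05, 20 were higher (6.16% of all genes), and 18 were higher without overlap (5.95%). None passed. With library weights 11 members passed, among 95 higher genes of all 11783. In the fit of night libraries alone 0 passed, where 22 of all genes were higher. The LKO libraries were uneven, and the mean over the list was 6.55, 7.19, 7.12 and 6.25 in LKO ZT16, against 6.11, 6.16, 6.11 and 6.11 in WT ZT16. Replicates 2 and 3 stood far above WT, replicate 1 in between and replicate 4 just above WT. Leaving out replicates 2 and 3 together, an alternative chosen after seeing the data, gave a median of 0.29.

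The named members had the same pattern. Hspa5, the chaperone BiP, had 630.4, 1407, 1299 and 462 FPKM in LKO ZT16, against 379, 393, 367 and 376 FPKM in WT ZT16 (1.17 ± 0.37, adjusted p = 0.246). Sdf2l1, a cofactor of BiP, had 48.3, 106, 109 and 29.2 FPKM in LKO ZT16, against 26.8, 22.6, 21.4 and 25.7 FPKM in WT ZT16 (1.37 ± 0.40, adjusted p = 0.23). In both genes LKO replicates 2 and 3 stood far above replicate 1, and replicate 4 was the lowest LKO library, still above all WT libraries.

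Herpud1, a part of the degradation complex of the endoplasmic reticulum, had 105, 183, 174 and 86.7 FPKM in LKO ZT16, against 66.5, 82.7, 69.6 and 72.6 FPKM in WT ZT16 (0.84 ± 0.24, adjusted p = 0.23). Edem1, which sends misfolded glycoproteins to degradation, had 20.1, 30.3, 28.99 and 14.7 FPKM in LKO ZT16, against 11.5, 13.5, 12.99 and 12.9 FPKM in WT ZT16 (0.79 ± 0.25, adjusted p = 0.246). As for Hspa5 and Sdf2l1, LKO replicates 2 and 3 were high, replicate 1 lay between and replicate 4 was lowest. Other genes of the pathway, named after their values were seen, had smaller differences, 0.30 ± 0.13 for the factor Xbp1, 0.02 ± 0.11 for its activating sensor Ern1 and 0.07 ± 0.15 for the translocon subunit Sec61b.

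The ER stress response element, CCAAT and CCACG with any 9 bases between them, is the site at which ATF6 and XBP1 act together with NF-Y, which binds its CCAAT part. It was searched on both strands of the RefSeq windows (build GRCm38.p6) from 250 bases before to 50 after each gene start. It was found for 8 of 20 list members with a window (40.0%), against 15 of 9012 tested genes with a window (0.166%) and 39 of 32851 windows in all (0.119%). A match is a description of these letters and not evidence of binding, and the list was built of known genes of this response. The 9 matches in the 8 genes are shown on the strand that reads CCAAT first, with the 2 fixed parts in capitals, because these genes carry the largest list difference of the comparison.
Hspa5, chr2:34772025-34772043, plus strand, 65 bases before the start: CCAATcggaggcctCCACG
Hsp90b1, chr10:86705638-86705656, minus strand, 212 bases before the start: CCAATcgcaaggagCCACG
Hsp90b1, chr10:86705533-86705551, plus strand, 107 bases before the start: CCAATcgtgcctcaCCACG
Calr, chr8:84847075-84847093, plus strand, 162 bases before the start: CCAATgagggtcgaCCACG
Canx, chr11:50325800-50325818, minus strand, 145 bases before the start: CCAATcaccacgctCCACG
Pdia6, chr12:17266491-17266509, plus strand, 98 bases before the start: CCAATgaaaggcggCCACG
Dnajc3, chr14:118937827-118937845, plus strand, 105 bases before the start: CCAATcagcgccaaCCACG
Creld2, chr15:88819520-88819538, minus strand, 126 bases before the start: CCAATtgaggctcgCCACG
Syvn1, chr19:6046532-6046550, plus strand, 44 bases before the start: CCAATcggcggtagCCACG
For Hspa5 the 250 bases before the start, chr2:34771840-34772089 on the plus strand, are shown with the whole element in capitals, to place it in its promoter.
Hspa5: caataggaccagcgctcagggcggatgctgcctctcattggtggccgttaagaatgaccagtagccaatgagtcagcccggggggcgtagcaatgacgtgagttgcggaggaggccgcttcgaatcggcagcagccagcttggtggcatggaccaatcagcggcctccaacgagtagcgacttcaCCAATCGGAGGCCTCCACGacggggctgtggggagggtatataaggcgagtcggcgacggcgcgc
The 8 genes did not share 1 size of difference. It was 1.17 ± 0.37 for Hspa5, 1.03 ± 0.37 for Creld2, 0.89 ± 0.28 for Hsp90b1 and 0.34 ± 0.13 for Canx, the lectin chaperone calnexin.

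**Figure D4:**
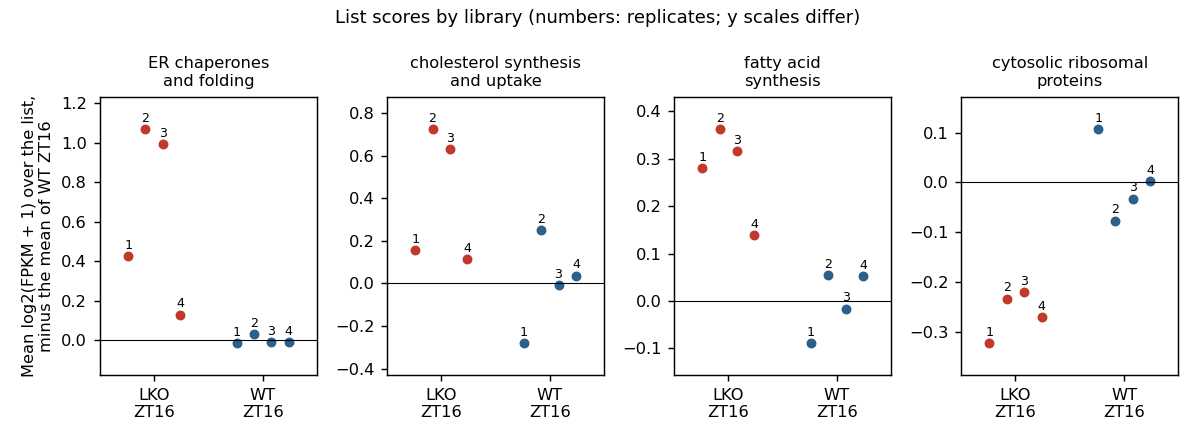
Mean log2(FPKM + 1) over the tested members of 4 lists in each of the 8 night libraries, minus the mean of WT ZT16 (numbers are replicates; the vertical scales differ between panels). LKO replicates 2 and 3 are highest for endoplasmic reticulum and cholesterol genes, WT replicate 1 is lowest for cholesterol and fatty acid genes and highest for ribosomal proteins.

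Genes of cholesterol synthesis and uptake, targets of SREBP2, had a median of 0.41. All 25 tested members had a positive difference (51.4% of all genes did), 18 at an unadjusted p under 0.05 (6.16%). None passed. The groups were apart in 1 of the 25, against 5.95% of all genes that were higher without overlap. It was the lanosterol synthase Lss, named for that (0.60 ± 0.24, adjusted p = 0.334). The mean over the list was 5.02, 5.58, 5.49 and 4.97 in LKO ZT16, against 4.58, 5.11, 4.85 and 4.89 in WT ZT16. LKO replicates 1 and 4 lay among the WT libraries, below WT replicate 2. With LKO replicates 2 and 3 left out the median was 0.15, and with WT replicate 1 left out it was 0.31.

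Fdps, which makes farnesyl diphosphate, had 198, 322, 299 and 160.05 FPKM in LKO ZT16, against 106, 191, 147 and 163 FPKM in WT ZT16 (0.66 ± 0.22, adjusted p = 0.269). Hmgcs1, the first enzyme committed to the mevalonate pathway, had 70.9, 110.4, 103 and 67.8 FPKM in LKO ZT16, against 42.6, 73.1, 59.7 and 59.5 FPKM in WT ZT16 (0.57 ± 0.20, adjusted p = 0.278). In both, the same pair of LKO libraries was high and the groups overlapped. Dhcr7, the last enzyme of cholesterol synthesis, had the smallest p of the list, with 34.8, 38.98, 38.4 and 32.8 FPKM in LKO ZT16, against 25.4, 33.98, 29.8 and 28.1 FPKM in WT ZT16 (0.30 ± 0.08, adjusted p = 0.223). The sterol regulatory element, ATCAC and CCAC with any 1 base between them, was found in 0 of 17 promoter windows of the list and in 0.211% of tested genes with a window.

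Genes of fatty acid synthesis and desaturation had a median of 0.22, with all 18 tested members positive (51.4% of all genes were). At an unadjusted p under 0.05, 11 were higher (6.16% of all genes), and 8 were higher without overlap (5.95%). In the fit of night libraries alone 2 passed, among 22 higher genes of all 11783. With library weights 3 passed, among 95 higher genes of all 11783. Scd2, the second stearoyl-CoA desaturase, had 191, 240.1, 221 and 158 FPKM in LKO ZT16, against 121, 144, 124 and 137 FPKM in WT ZT16 (0.61 ± 0.16, adjusted p = 0.223). Elovl6, which elongates palmitate, had 18.4, 23.7, 21.02 and 16.97 FPKM in LKO ZT16, against 11.8, 15.6, 13.6 and 15.3 FPKM in WT ZT16 (0.48 ± 0.14, adjusted p = 0.23). Both had LKO replicate 4 lowest and replicate 2 highest. The fatty acid synthase Fasn, named after its values were seen, had a difference of 0.14 ± 0.16 (adjusted p = 0.752). The median of the list was 0.23 with LKO replicates 2 and 3 left out.

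Targets of PPAR receptors, which sense fatty acids, had a median of 0.18. Of 18 members 16 were positive (51.4% of all genes were), 5 at an unadjusted p under 0.05 (6.16%), and 0 passed. Plin2, which coats lipid droplets, had 651, 787, 782 and 543 FPKM in LKO ZT16, against 265, 476, 409 and 633 FPKM in WT ZT16 (0.68 ± 0.20, adjusted p = 0.226). Among WT libraries replicate 1 was lowest and replicate 4 lay among the LKO values. Pdk4, which restrains pyruvate oxidation, had 45.5, 51.003, 60.1 and 44.3 FPKM in LKO ZT16, against 17.3, 43.5, 37.4 and 40.4 FPKM in WT ZT16 (0.59 ± 0.21, adjusted p = 0.276). WT replicate 1 was again far below the other WT libraries, though the groups were apart. The mitochondrial carrier Ucp3 had 1.67 ± 0.134 FPKM in LKO ZT16 and 0.965 ± 0.282 FPKM in WT ZT16 (SD, n = 4; 0.45 ± 0.12, adjusted p = 0.223).

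Among sterol efflux genes under the receptor LXR, Lpcat3, which remodels phospholipids, had 36.2, 35.4, 34.6 and 31.2 FPKM in LKO ZT16, against 26.4, 27.4, 24.96 and 30.8 FPKM in WT ZT16 (0.32 ± 0.09, adjusted p = 0.23). The list median was 0.08, and the list was split. Of 11 tested members 7 were positive and 4 negative (51.4% and 48.6% of all genes). Without overlap 3 were higher and 2 lower (5.95% and 5.92% of all genes). The phospholipid synthesis list, to which Chpt1 belongs, had a median of 0.015, with 15 of 19 positive (51.4% of all genes were). Without LKO ZT16 replicates 2 and 3 that median was -0.019. Glycolysis genes had a median of 0.03 and 0 members at an unadjusted p under 0.05. Their median was -0.09 without LKO ZT16 replicates 2 and 3, -0.03 without replicate 2 alone, -0.016 without WT ZT16 replicate 2 and -0.014 without WT ZT16 replicate 3, so it had no stable sign. Of 17 tested hypoxia targets 2 were higher at an unadjusted p under 0.05 (6.16% of all genes), and none passed. The median of the hypoxia list was 0.18. It was 0.11 without LKO ZT16 replicates 2 and 3 and 0.10 without WT ZT16 replicate 3.

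Targets of TGF-beta and BMP ligands, growth factors that reach muscle from the blood, had a median of -0.17. Of 23 members 18 were negative (48.6% of all genes were), 7 at an unadjusted p under 0.05 (6.59%), and 0 passed. Id3, an inhibitor of helix-loop-helix factors, had 39.7, 56.3, 58.7 and 63.5 FPKM in LKO ZT16, against 113, 107, 70.4 and 76.97 FPKM in WT ZT16 (-0.73 ± 0.18, adjusted p = 0.217). Timp1, an inhibitor of metalloproteinases, had 1223, 1408, 1223 and 1330.04 FPKM in LKO ZT16, against 1689, 1932, 1917 and 1739 FPKM in WT ZT16 (-0.49 ± 0.13, adjusted p = 0.223). In both genes the groups were apart. Id1 had 66.5 ± 10.9 FPKM in LKO ZT16 and 101 ± 26.7 FPKM in WT ZT16 (SD, n = 4; -0.57 ± 0.19, adjusted p = 0.269), with overlap.

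Ctgf, a matricellular protein that is a target of both TGF-beta and YAP, had 25.98, 61.5, 58.6 and 52.9 FPKM in LKO ZT16, against 76.3, 85.1, 155 and 64.8 FPKM in WT ZT16 (-0.91 ± 0.31, adjusted p = 0.269). LKO replicate 1 and WT replicate 3 were the extremes. Cytoskeletal targets of SRF and YAP, which respond to serum factors through actin, had a median of -0.16, with 26 of 28 negative (48.6% of all genes were). At an unadjusted p under 0.05, 11 were lower (6.59% of all genes), 6 were lower without overlap (5.92%), and 0 passed. Without LKO ZT16 replicate 1 the median was -0.09. Tagln, an actin-binding protein, had 397, 479, 403 and 450.1 FPKM in LKO ZT16, against 495, 559.7, 669.5 and 539 FPKM in WT ZT16 (-0.38 ± 0.12, adjusted p = 0.246), and its relative Tagln2 had 623 ± 28.5 FPKM in LKO ZT16 and 727 ± 23.6 FPKM in WT ZT16 (SD, n = 4; -0.22 ± 0.07, adjusted p = 0.231).

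Immediate early genes, the first that growth factors induce, had a median of -0.11. Of 22 members 19 were negative and 4 lower without overlap (48.6% and 5.92% of all genes), and 0 passed. The median was -0.06 without LKO ZT16 replicate 1, -0.18 without replicate 3 and -0.0029 with libraries at 1 summed FPKM. Fos had 2.45, 2.09, 2.33 and 2.37 FPKM in LKO ZT16, against 2.64, 3.39, 3.64 and 2.85 FPKM in WT ZT16 (-0.31 ± 0.13, adjusted p = 0.342), and Junb had 149.5 ± 13.6 FPKM in LKO ZT16 and 192 ± 5.67 FPKM in WT ZT16 (SD, n = 4; -0.36 ± 0.15, adjusted p = 0.351). NF-kappaB targets had a median of -0.17. Of 18 members 13 were negative and 3 lower without overlap (48.6% and 5.92% of all genes). Relb had 11.3 ± 0.6497 FPKM in LKO ZT16 and 14.3 ± 0.7296 FPKM in WT ZT16 (-0.31 ± 0.15, adjusted p = 0.39). Without LKO replicates 2 and 3 the NF-kappaB median was 0.07, of opposite sign.

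Interferon-stimulated genes had a positive median of 0.14, at low levels. Of 16 tested members 13 were positive and 4 higher without overlap (51.4% and 5.95% of all genes), and 0 passed. Isg15, the ubiquitin-like modifier, had 2.79, 2.86, 3.98 and 3.76 FPKM in LKO ZT16, against 1.72, 2.12, 2.13 and 2.67 FPKM in WT ZT16 (0.46 ± 0.14, adjusted p = 0.23), and Irf9, a subunit of the interferon-activated factor, had 3.56 ± 0.565 FPKM in LKO ZT16 and 2.75 ± 0.152 FPKM in WT ZT16 (0.27 ± 0.09, adjusted p = 0.271). The list of MHC class I and immunoproteasome genes, of antigen presentation, was mixed. Its median was -0.07, with 9 of 13 negative (48.6% of all genes were). The class I genes H2-K1 (0.19 ± 0.10, adjusted p = 0.433) and H2-T22 (0.21 ± 0.14, adjusted p = 0.564) were positive, with overlap. The immunoproteasome subunit Psmb10 had 9.71, 10.5, 9.15 and 11.03 FPKM in LKO ZT16, against 15.5, 11.4, 13.2 and 13.4 FPKM in WT ZT16 (-0.37 ± 0.10, adjusted p = 0.223).

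Targets of ATF4, the factor of amino acid and endoplasmic reticulum stress, had a median of 0.13. Of 29 members 26 were positive (51.4% of all genes were). At an unadjusted p under 0.05 only 2 were higher, near the share of all genes (6.16%), and none passed. Ddit3, the stress factor CHOP, had 30.02, 44.7, 43.9 and 14.2 FPKM in LKO ZT16, against 16.99, 16.7, 14.1 and 18.5 FPKM in WT ZT16 (0.84 ± 0.40, adjusted p = 0.392), with LKO replicates 2 and 3 high and replicate 4 among the WT libraries. The hormones Gdf15 (0.64 ± 0.26, adjusted p = 0.332) and Fgf21 (0.50 ± 0.22, adjusted p = 0.362) were the 2 members below that unadjusted p. Fgf21 had 34.6, 27.8, 30.8 and 33.1 FPKM in LKO ZT16, against 12.7, 33.8, 21.4 and 24.9 FPKM in WT ZT16, and here it was WT replicate 1 that stood low. Aminoacyl-tRNA synthetases had a median of 0.02 and heat shock proteins one of -0.03.

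Antioxidant and metal-binding genes had single members with larger differences. Thioredoxin Txn1 had 400.3, 485, 447 and 446 FPKM in LKO ZT16, against 543, 519.8, 519 and 575 FPKM in WT ZT16 (-0.28 ± 0.07, adjusted p = 0.19), and glutathione peroxidase Gpx1 had 306 ± 4.39 FPKM in LKO ZT16 and 364 ± 7.48 FPKM in WT ZT16 (SD, n = 4; -0.25 ± 0.07, adjusted p = 0.223), both apart, while the NRF2 list as a whole had a median of 0.04. The metallothioneins, which bind zinc and follow glucocorticoids, had 249.8, 316, 377 and 422 FPKM for Mt1 in LKO ZT16, against 581, 459, 423 and 531 FPKM in WT ZT16, and 254, 314, 364 and 518 FPKM for Mt2 in LKO ZT16, against 709, 509.97, 483 and 584 FPKM in WT ZT16. The groups were apart for Mt1 and overlapped for Mt2. The difference was -0.56 ± 0.18 for Mt1 and -0.69 ± 0.22 for Mt2, neither passing (adjusted p of 0.246 for both). The median of the glucocorticoid response list was 0.04, and near 0 with the opposite sign at a mean of at least 2 FPKM (-0.0020) or without WT ZT16 replicate 1 (-0.0028).

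The myotubes' own clock was measured through 16 tested genes, of which none passed. A positive difference was found for 9 (51.4% of all genes had one). The median was 0.09, or -0.01 over the members with a mean of at least 2 FPKM. At an unadjusted p under 0.05, 4 were higher (6.16% of all genes) and 0 lower. These were Cry1, Cry2, Nr1d2 and Rora (0.22 ± 0.10), the last with means of 0.64 and 0.41 FPKM in LKO ZT16 and WT ZT16. Arntl, which the deletion in the donors leaves untouched in these cells, had 6.29, 5.41, 4.25 and 4.35 FPKM in LKO ZT16, against 5.53, 5.72, 5.28 and 4.87 FPKM in WT ZT16 (-0.08 ± 0.15, adjusted p = 0.867), so its level does not check the deletion in the donors. Of the repressors, Cry1 had 9.72 ± 2.22 FPKM in LKO ZT16 and 7.47 ± 0.461 FPKM in WT ZT16 (0.32 ± 0.14), Cry2 5.21 ± 0.2101 and 4.41 ± 0.346 FPKM (0.20 ± 0.08), Per1 5.95 ± 0.801 and 6.31 ± 1.12 FPKM (-0.07 ± 0.12) and Per2 1.97 ± 0.191 and 1.72 ± 0.2796 FPKM (0.13 ± 0.11; SD, n = 4). Cry2 had the smallest adjusted p of the list, 0.323. In 3 clock genes, Cry2, Per3 and Ciart, each LKO library lay above each WT library, as in 5.95% of all genes. For Ciart the difference was no larger than its error (0.24 ± 0.25, adjusted p = 0.711). Nr1d1 (-0.11 ± 0.12) and its relative Nr1d2 (0.17 ± 0.08), repressors of Arntl, differed in sign. The E-box CACGTG, at which BMAL1 and CLOCK bind, was in 4 of 12 promoter windows of these genes (Per1, Cry1, Ciart and Bhlhe41), against 12.1% of tested genes with a window. The clock output factors Tef (0.14 ± 0.07) and Dbp (0.25 ± 0.15) belong to a list with a median of 0.12. In it 7 of 8 were positive (51.4% of all genes were).

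Contractile and muscle identity genes gave no common direction. The sarcomere list had a median of -0.01, with 23 of 48 positive (51.4% of all genes were) and none passing. Myogenic factors and fusion genes had a median of 0.06. The fast myosin-binding protein Mybpc2 had 4.11, 4.21, 4.39 and 3.44 FPKM in LKO ZT16, against 3.29, 3.07, 1.91 and 1.56 FPKM in WT ZT16 (0.57 ± 0.17, adjusted p = 0.23), and the calcium pump Atp2a2 had 199, 249.9, 241 and 199 FPKM in LKO ZT16, against 172, 183, 179.8 and 163 FPKM in WT ZT16 (0.34 ± 0.12, adjusted p = 0.287). For Myog, the factor of terminal differentiation, the groups overlapped (-0.30 ± 0.14, adjusted p = 0.395). Genes of muscle wasting under FoxO had a median of 0.02, or -0.03 without WT ZT16 replicate 1, and cell cycle genes one of -0.02, with Rbl1, a repressor of the cycle, at 17.4 ± 0.529 FPKM in LKO ZT16 and 14.7 ± 0.402 FPKM in WT ZT16 (SD, n = 4; 0.23 ± 0.07, adjusted p = 0.231).

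Of the 49 lists with 3 or more tested members, 47 held no gene that passed, and 19 had a median of 0.1 or more in either direction. Bringing all libraries to 1 summed FPKM added 0.10 to the median of all genes, so it shortened the negative medians and lengthened the positive ones. Under it mitochondrial ribosomal proteins had a median of 0.016 in place of -0.09, and cytosolic ribosomal proteins kept a negative one, -0.12. The small negative medians of the MHC class I, heat shock, cell cycle and sarcomere lists also turned positive under it, at 0.04, 0.08, 0.08 and 0.10.

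The same contrast with day serum gave a different picture for the short transcripts. Day serum passed 1 gene, Snhg6 (0.00849% of genes), which was higher in LKO ZT4, and 1210 genes (10.3%) had an unadjusted p under 0.05. The test of the difference itself, LKO minus WT at ZT16 minus LKO minus WT at ZT4, passed 11 genes (0.0934%), 10 lower (0.0849%) and 1 higher (0.00849%), and 1209 genes (10.3%) had an unadjusted p under 0.05. The night and day contrasts use separate libraries, 8 each.

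Rps27rt had 4658 ± 1029 FPKM in LKO ZT4 and 2875 ± 98.2 FPKM in WT ZT4 (SD, n = 4), so its day difference of 0.67 ± 0.12 was opposite to that with night serum, and the interaction was -1.49 ± 0.17 (adjusted p = 0.000592). Rps21 had 3096 ± 823 FPKM in LKO ZT4 and 1863 ± 223 FPKM in WT ZT4 (interaction -1.58 ± 0.21, adjusted p = 0.00346). Snhg6 had 82.5 ± 10.6 FPKM in LKO ZT4 and 48.3 ± 5.09 FPKM in WT ZT4 (interaction -1.27 ± 0.14, adjusted p = 0.000592). In all 3 the sign of the LKO minus WT difference turned between the times.

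The interaction was -1.04 ± 0.15 for Rpl39 (adjusted p = 0.00983), -1.13 ± 0.18 for Slirp (adjusted p = 0.0144), -1.64 ± 0.28 for Rpl38 (adjusted p = 0.0255) and -1.12 ± 0.17 for Rpl34-ps1, a pseudogene named after its values were seen (adjusted p = 0.00983). It was smaller for Gm12191 (-0.61 ± 0.09, adjusted p = 0.0125), Cox7a2 (-0.69 ± 0.12, adjusted p = 0.0342) and Tmem208 (-0.56 ± 0.10, adjusted p = 0.0255). Chpt1 was the single gene with a higher interaction (0.51 ± 0.09, adjusted p = 0.0268), from 19.95 ± 0.527 FPKM in LKO ZT4 and 23.1 ± 2.33 FPKM in WT ZT4 by day and 24.2 ± 0.971 and 19.3 ± 0.632 FPKM by night. For Ass1 the interaction did not pass (-1.48 ± 0.32, adjusted p = 0.0757). The count of 11 was 109 when LKO ZT4 replicate 1 was left out, 39 when its replicate 3 was left out, 6 when LKO ZT16 replicate 1 was left out, and 127 with library weights. The short-minus-long value was -0.059, 0.13, -0.136 and 0.226 in LKO ZT4, against -0.05, -0.03, -0.047 and -0.083 in WT ZT4. Its range was wider in LKO ZT4 than in the other groups, and its part in the interaction was not tested.

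**Figure D5:**
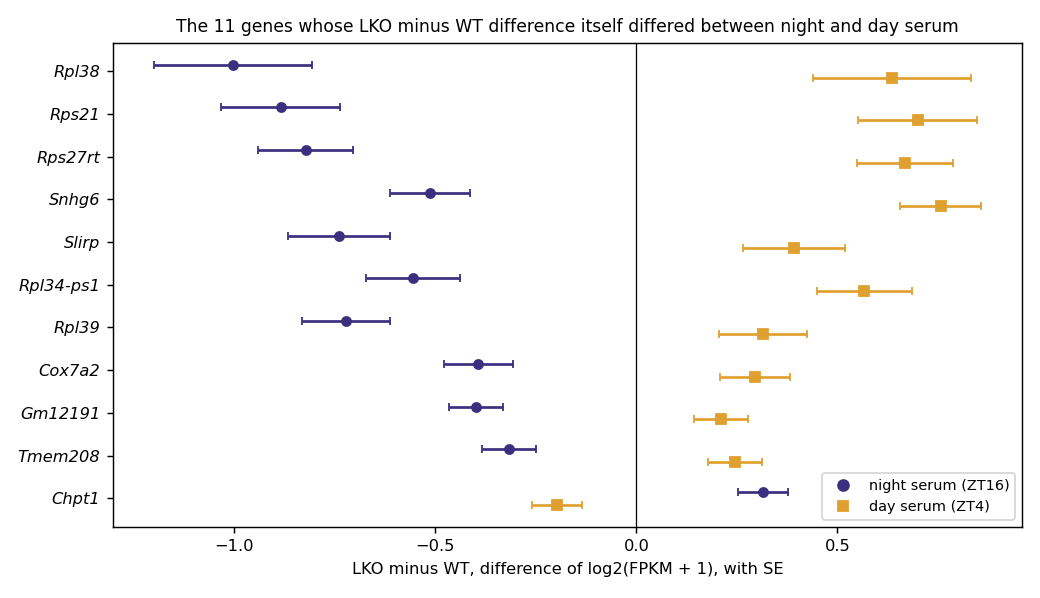
LKO minus WT difference with its SE for the 11 genes whose difference itself differed between night serum (ZT16, circles) and day serum (ZT4, squares). For 10 genes the night value is negative and the day value positive, and for Chpt1 the signs are the other way round.

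At the level of lists, cytosolic ribosomal proteins had a median of -0.23 by night and 0.09 by day, complex I subunits -0.17 and 0.14, and complexes III and IV -0.19 and 0.13. The day means of the ribosomal list were 10.32, 10.51, 10.27 and 10.62 in LKO ZT4, against 10.34, 10.37, 10.27 and 10.23 in WT ZT4. For complex I they were 6.98, 7.27, 6.95 and 7.33, against 6.98, 7.03, 6.96 and 6.96. In all 3 lists LKO ZT4 replicates 2 and 4 lay above every WT ZT4 library, and replicates 1 and 3 among or below them. The lipid and endoplasmic reticulum lists kept their sign: endoplasmic reticulum genes had medians of 0.73 by night and 0.71 by day, cholesterol genes 0.41 and 0.25 and fatty acid genes 0.22 and 0.11, and none of their members had an interaction that passed. In day serum the mean over the endoplasmic reticulum list was 7.77, 7.03, 6.92 and 6.39 in LKO ZT4, against 6.37, 6.20, 6.36 and 6.42 in WT ZT4, again uneven among LKO libraries, with replicate 4 among the WT libraries. Hspa5 had an interaction of -0.01 ± 0.52 (adjusted p = 0.995) with a wide error.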

How the data were processed

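Messenger RNA of 16 cultures was purified with poly-T beads and sequenced, per the labels' protocols. STAR, FastQC 0.11.8 and the builds mm10 and GRCm39 are named in the submitters' processing notes, with no role given; no counting tool is named there. The values are FPKM as deposited by the authors in 1 table; the depth is known only relative to the deepest library, since read counts were not used here. Of 24346 rows, 27 with symbols turned into dates were left out. Genes with a mean of at least 0.5 FPKM over the 16 libraries (11783) were tested on log2(FPKM + 1) with limma 3.58.1 (R 4.3.3) in 1 model of 4 groups with an intensity trend, 12 residual degrees of freedom and Benjamini-Hochberg adjustment at 0.05; the same steps were tested on simulated data. Python 3.11.15 and pandas 2.3.3 made the tables.

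Groups and replicate numbers come from the sample titles. Named genes were those that passed, the 10 per direction with the smallest p, the 6 with the smallest interaction p, the clock genes, and up to 4 genes with the smallest p of each list described; others are said to be named after their values were seen. The comparison, the gene lists and the members were chosen with earlier results of these data known. Alternatives were another pseudocount (0.1), no filter or one at 2 FPKM, other scalings, library weights, the 8 night libraries alone, replicate blocks, removal of length and GC trends, transcripts of at least 1000 nt, and leaving out each library.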

Additional observations from a re-analysis of the deposited data

Results flagged for a closer look

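For 11 genes the LKO minus WT difference itself differed between night and day serum (limma interaction, adjusted p under 0.05, 0.0934% of genes). On the log2 scale the interaction was 0.51 for Chpt1, -1.58 for Rps21, -1.49 for Rps27rt, -1.13 for Slirp, -1.04 for Rpl39, -1.27 for Snhg6, -1.64 for Rpl38, -0.56 for Tmem208, -0.69 for Cox7a2, -0.61 for Gm12191 and -1.12 for Rpl34-ps1. A negative value means that the difference was lower with night serum than with day serum.

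Single libraries stood apart from the other 3 of their group in 11 of 260 groups of 4 examined (4.23%), where chance flags about 1 in 20. Among list means these were ATF4 targets in LKO ZT16 replicate 4 (5.08 on the log2 scale, against 5.31 to 5.35 in the others), endoplasmic reticulum genes in WT ZT16 replicate 2 (6.16, against 6.11 in the others) and small nucleolar RNA host genes in LKO ZT16 replicate 2 (4.43, against 4.20 to 4.23).

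In LKO ZT16, replicate 2 stood apart for Rps29 (1051.9 FPKM, against 759 to 806) and Ciart (4.04 FPKM, against 2.83 to 3.03), and replicate 4 for Cox7c (587 FPKM, against 669 to 680.3) and Id1 (82.7 FPKM, against 59.8 to 62.1). In WT ZT16, replicate 1 stood apart for Rpl38 (3238 FPKM, against 2319.8 to 2412) and Ndufa3 (282 FPKM, against 239 to 243), replicate 2 for Dhrs3 (3.46 FPKM, against 1.62 to 1.87) and replicate 3 for Gdf15 (17.2 FPKM, against 21.3 to 21.9).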

How the results depend on the processing

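The night count of 6 became 0 with no filter on low values (1749 genes at an unadjusted p under 0.05), 9 (3 higher, 6 lower; 2441 at an unadjusted p under 0.05) with the same summed FPKM, 2 with median-ratio scaling, 254 with library weights, 131 with the 2 night groups alone, 10 without length trends and 0 for transcripts from 1000 nt up (1116 at an unadjusted p under 0.05). The day count of 1 became 0 with no filter, 2 at a mean of at least 2 FPKM, 0 with the same summed FPKM, 3 with library weights, 0 without length trends and 0 for transcripts from 1000 nt up. The interaction count of 11 became 3 with no filter, 23 at a mean of at least 2 FPKM, 17 with the same summed FPKM, 127 with library weights, 18 without length trends and 0 for transcripts from 1000 nt up. Leaving out each library in turn gave 0 to 27 genes by night, 0 to 16 by day and 6 to 109 for the interaction. Leaving out LKO ZT16 replicates 2 and 3 together, chosen after seeing the data, gave 0, 2 and 4. The cause of these shifts was not tested.

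Replicate numbers gave no clear sign of a pairing of the samples, but so few weak correlations cannot exclude one. Deviations of same-numbered night libraries correlated at -0.147, -0.150, 0.007 and -0.045 by title numbers. By the numbers in the column names, which differ from the titles, they correlated at 0.093, 0.119, -0.093 and 0.034. A replicate block by title numbers gave 0 genes by night, 1 by day and 6 for the interaction, and one by column-name numbers gave 3, 3 and 12. Not every library correlated best with its own number.

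Differences of 4 clock genes, none of which passed, changed sign. With the same summed FPKM they were 0.018 for Arntl, 0.027 for Per1 and 0.092 for Bhlhe41. With each library left out in turn they ran from -0.15 to 0.026 for Per1 and from -0.069 to 0.032 for Bhlhe41, positive for Per1 without WT ZT16 replicate 3 and for Bhlhe41 without LKO ZT16 replicate 2 (0.032) or 3 (0.021). Without LKO ZT16 replicates 2 and 3 together they were 0.045 for Per1, 0.099 for Nr1d1 and 0.10 for Bhlhe41. Depth is known only in relative terms, so genes near 1 FPKM, such as Tecrl and Akr1b7, have the least certain folds.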
